A study of Mus musculus with 5 samples.

Results

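The Fat, Dachsous and Celsr proteins are giant cadherins, cell surface adhesion molecules with long chains of extracellular cadherin repeats. The family was taken as the genes with the symbols Dchs1, Dchs2, Fat1, Fat2, Fat3, Fat4, Celsr1, Celsr2 and Celsr3, together with Fjx1. Fjx1 is the mammalian relative of a fly gene whose kinase acts on Fat and Dachsous cadherins. These were 10 of the 54232 genes listed. They were found by symbol, as the family of Dchs1, a gene that the study had already named among those it called in these samples. Expression was measured by poly-A RNA sequencing in primary myoblasts, muscle precursor cells isolated from the leg muscles of mice with magnetic beads for satellite cells and for an integrin. The cells were differentiated for 72 h in low horse serum, conditions in which myoblasts fuse into myotubes. Wild-type cultures (WT, n = 3) were compared with cultures from Elmo2 EID/EID mice (EID, n = 2), which carry on both alleles a knock-in mutation in the ELMO inhibitory domain of ELMO2 that favours the open, active form of this regulator of RAC1. The mutation is present in the whole animal and not in muscle cells alone, both groups received the same culture medium, and the mice of the study were of mixed C57BL6 and 129SV background. The study isolated primary myoblasts from mice of 6 to 8 weeks of age. The study states that its primary cell experiments typically used cells from 3 independent mice, without saying so for these samples. Nothing in the labels says that the samples of a group came from separate animals, so the p-values measure the spread between these samples.

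Dachsous cadherins on one cell bind Fat cadherins on its neighbour, and the pair of DCHS1 and FAT4 is the best known in mammals. The kinase of the fly gene four-jointed, whose mammalian relative is Fjx1, phosphorylates the cadherin repeats and tunes this binding. Celsr proteins combine cadherin repeats with a membrane domain of the adhesion receptor type and belong to the core of planar cell polarity, the alignment of cells within the plane of a tissue. Fat and Dachsous signalling also feeds into the Hippo pathway, which restrains the growth regulators YAP1 and WWTR1. FAT1 is known for its role in the migration and shaping of muscle groups, and ELMO and DOCK proteins for a role in myoblast fusion.

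The members differ in size and in the sequence before the start sites that RefSeq lists for them. On GRCm38, the longest coding transcript of Dchs1 (ENSMUSG00000036862, chr7:105752990-105787654, minus strand) has 21 exons and encodes 3291 amino acids. That of Fat4 (ENSMUSG00000046743, chr3:38886940-39011985, plus strand) encodes 4981, and that of Fat1 (ENSMUSG00000070047, chr8:44935447-45052257, plus strand) encodes 4645. Fjx1 (ENSMUSG00000075012, chr2:102449366-102452499, minus strand) has a single exon and encodes 450. RefSeq promoter sequences of the GRCm38.p6 build matched 7 of the 10 members, those other than Dchs1, Fjx1 and Celsr1. The 250 bases before the RefSeq start are shown for 3 Fat receptors that span the range of levels described below: Fat1, the most abundant member (chr8:44949958-44950207, plus strand), Fat4, the partner of DCHS1 (chr3:38886690-38886939, plus strand), and Fat3, which was at or under 3 reads in every sample (chr9:16502055-16502304, minus strand). Each is written 5′ to 3′ on the strand of its gene, and capitals mark CG dinucleotides, the sites of DNA methylation in mammals.
Fat1: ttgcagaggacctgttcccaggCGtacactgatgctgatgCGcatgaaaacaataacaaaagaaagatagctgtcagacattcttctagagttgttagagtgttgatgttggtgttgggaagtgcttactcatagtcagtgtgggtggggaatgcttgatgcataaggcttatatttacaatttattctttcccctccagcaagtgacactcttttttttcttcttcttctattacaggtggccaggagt
Fat4: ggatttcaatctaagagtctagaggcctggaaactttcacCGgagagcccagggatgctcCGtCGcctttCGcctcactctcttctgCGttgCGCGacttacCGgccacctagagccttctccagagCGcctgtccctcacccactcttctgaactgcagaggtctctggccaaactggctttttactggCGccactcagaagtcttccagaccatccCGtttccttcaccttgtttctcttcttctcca
Fat3: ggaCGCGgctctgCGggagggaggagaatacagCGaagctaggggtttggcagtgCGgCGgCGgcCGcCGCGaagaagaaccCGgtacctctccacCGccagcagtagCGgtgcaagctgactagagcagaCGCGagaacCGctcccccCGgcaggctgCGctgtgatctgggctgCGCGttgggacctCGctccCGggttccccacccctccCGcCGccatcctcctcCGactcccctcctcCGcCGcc

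The Fat1 window held 2 CG dinucleotides, that of Fat4 held 11 and that of Fat3 held 27, against a median of 6 over 32841 promoter windows of the same length. At least 1 CG was present in 92.1% of those windows. The other matched members lay between 3 CG, in Fat2, and 32, in Celsr2. The number of CG in these windows did not follow the level: Fat3 had 27 CG and few reads, and Celsr2 had the most CG and was expressed. The sequence CAGCTG, an E-box of the kind that myogenic factors such as MYOD1 bind, reads the same on both strands. It occurred in 0 of the 7 member windows and in 13.0% of all windows. The start used by RefSeq lies 14761 bases inside the outermost start listed by GENCODE for Fat1 and 24307 bases inside it for Fat2. That for Fat3 lies 769 bases outside it, whereas for Fat4 they are the same base. The windows of Fat1 and Fat2 thus lie inside their genes, and their low CG counts may not be those of the promoter in use. Promoter activity was not measured.

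The deposited values were read counts divided by a size factor for each sample (normalized counts). They rest on 35021856 to 49381544 reads per sample, at which 3 reads, taken as the floor, correspond to 2.65 to 3.73 normalized counts. To compare genes, values were also divided by the length of all exons of a gene (normalized counts per kb). Samples were checked against marker genes summed over lists for each cell type. The 10 myogenic markers summed to between 1591928 and 1875366 normalized counts in the 5 samples, with no marker at the floor in all. The 10 endothelial markers summed to 1189, 381 and 1249 in WT replicates 1, 2 and 3 and to 2873 and 4308 in EID replicates 1 and 2, and for 9 of the 10 markers both EID samples were above every WT sample. The 10 markers of fibro-adipogenic progenitors summed to 1792, 319 and 1035 in WT and to 781 and 1532 in EID, with Pi16 and Lum at the floor in every sample. Macrophage markers (8 genes) summed to 107, 140 and 83.3 in WT and to 295 and 127 in EID, with Ptprc at the floor in every sample. Pericyte and smooth muscle markers (8 genes) summed to 10989 to 12819 in WT and 9956 and 10016 in EID, with Kcnj8 and Higd1b at the floor, and those of Schwann cells (9 genes, mostly Erbb3) to 15726 to 17153. The Schwann sum therefore shows little beyond Erbb3. By the mean of log2(normalized count + 1), 8 of the 9 Schwann markers were higher in EID, with a median difference of 1.09. All 7 macrophage markers and all 7 fibro-adipogenic markers that were tested were higher too. The groups overlapped for 6 Schwann, 6 macrophage and 5 fibro-adipogenic markers, and 9458 of 18156 genes tested were higher. Elmo2 itself had 1642, 1539 and 1660 normalized counts in WT and 1441 and 1327 in EID. It carries a point mutation, so its level does not check the labels.

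Fat1 was by far the most abundant member, Dchs1 came next, and 3 of the 10 genes, Fat2, Celsr1 and Fat3, had 9 reads or fewer in every sample. Per kb of exon, Fat1 had 747, 649 and 762 normalized counts in WT and 567 and 723 in EID, above 85.1% of the 18156 genes tested. Dchs1 had 89.7, 148 and 127 in WT and 160 and 243 in EID, and every sample of Fat1 was above every sample of Dchs1. Fjx1 (45.5 to 57.5 normalized counts per kb over the 5 samples) and Celsr2 (42.2 to 59.7) followed and could not be ordered: Fjx1 was the higher of the pair in 2 of 5 samples, and the order of their means changed when the length of the longest coding transcript was used. Celsr3 (9.96 to 15.0 per kb) was above Fat4 (4.78 to 12.1 per kb) within each of the 5 samples, but their ranges overlapped. Dchs2 (1.47 to 1.74 per kb) was below all of these in every sample. Fat2 and Celsr1 stayed below 0.7 per kb and exchanged places between samples. Fat3 had 1, 0 and 1 reads in WT and 2 in each EID sample, all under the floor, so that it was not tested and no fold is given.

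**Figure D1:**
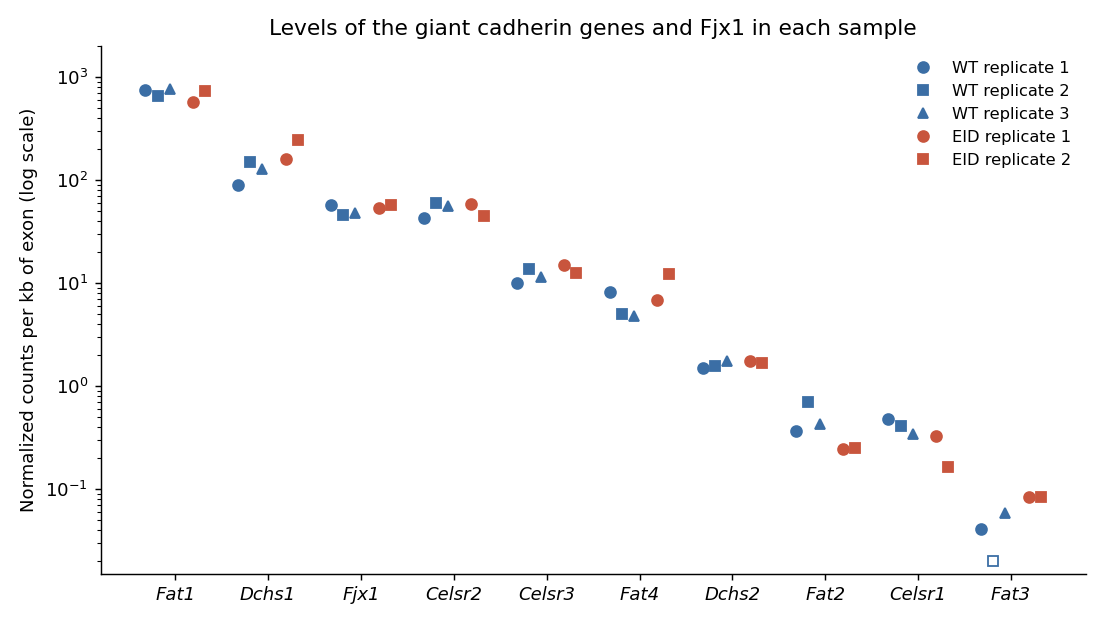
Level of each member in each sample, as normalized counts per kb of exon on a log axis, with WT in blue and EID in red and the replicate given by the symbol; the open symbol marks the WT sample of Fat3 with 0 reads, drawn at 0.02. The members span from 762 for Fat1 to under 0.1 for Fat3, and the Dchs1 points of EID lie above those of WT.

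Among the 9 members tested, none passed the test for a difference between EID and WT. Each difference is the mean of log2(normalized count + 1) in EID minus that in WT, called the log2 fold change. It was tested with limma over 18156 genes, and a gene was called when its p, adjusted by the Benjamini-Hochberg procedure, was under 0.05. Adding 1 makes the fold change of genes with few counts too small. By this test 2.23% of all genes were called and 0 of 9 members, and edgeR's quasi-likelihood test on the recovered reads called 2.25% of genes and 0 members. At an unadjusted p under 0.05, limma had 1 member, Dchs1, beside 15.2% of all genes. DESeq2's Wald test, the tool of the study, called 5.55% of genes and 1 member, again Dchs1, when run on those reads. No overlap between the groups was seen for 3 of the 9 members, Dchs1 in the direction of EID and Fat2 and Celsr1 in that of WT, and for 32.6% of all genes tested. Fat2 and Celsr1 passed the filter on low values only through WT, so their lack of overlap carries no weight. Of the 7 members that reached 5 normalized counts in both groups, 1 had groups that did not overlap. The median log2 fold change of the 9 members was 0.10, against 0.01 for all genes. In bulk RNA, fewer cells of a type and less RNA per cell cannot be told apart, and this holds for every value given here.

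**Figure D2:**
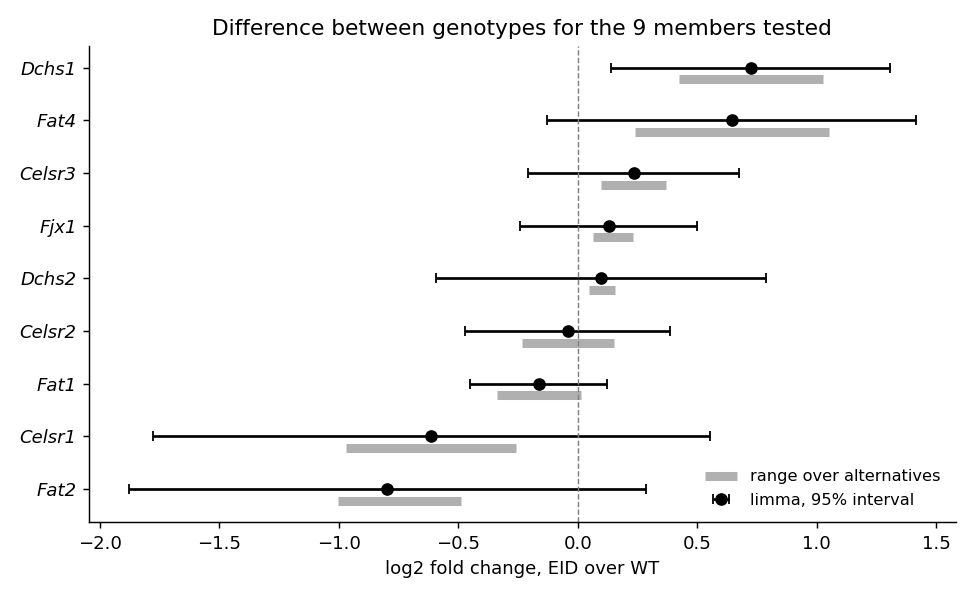
Log2 fold change of EID over WT for the 9 members tested, with the limma estimate and its 95% interval (black) and the range of the estimate over the alternative settings (grey bar). The interval of Dchs1, 0.14 to 1.31, lies above 0 before adjustment for multiple tests, and those of the other 8 include 0.

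The ligand gene Dchs1 had the lowest unadjusted p of the family. The study listed it among several adhesion genes called in these same samples, which are therefore not independent evidence of its direction. Dchs1 had 991, 1635 and 1407 normalized counts in WT replicates 1, 2 and 3 and 1765 and 2683 in EID replicates 1 and 2. The groups did not overlap, but WT replicate 2 and EID replicate 1 lay close together, while WT replicate 1 and EID replicate 2 lay far out on either side. The means were 1345 ± 327 (SD, n = 3) and 2224 ± 649 (SD, n = 2), a ratio of 1.65. The log2 fold change was 0.72 (SE 0.25, 95% interval 0.14 to 1.31), with an adjusted p of 0.228 by limma, 0.207 by edgeR and 0.0431 by DESeq2. Without EID replicate 2 it was 0.42 and without EID replicate 1 it was 1.03. Within groups, Dchs1 varied with a residual SD of 0.39 on the log2 scale, larger than that of 95.6% of 11223 genes whose mean reached 100 normalized counts. The summed endothelial markers were also highest in EID replicate 2, but their lowest WT value was in replicate 2, where Dchs1 had its highest WT value. The part of other cell types in the level of Dchs1 was not tested.

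Dchs2, the other Dachsous gene (ENSMUSG00000102692), was low and even. It had 15.9, 16.8 and 18.6 normalized counts in WT and 18.8 and 17.9 in EID, with overlapping groups. The log2 fold change was 0.10 with a 95% interval of -0.60 to 0.79, so a change of either sign of moderate size was not detectable at this depth. Per kb, Dchs1 exceeded Dchs2 by 60.8 to 146 times within a sample.

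Fat4, which encodes the main receptor for DCHS1, varied more within the groups than Dchs1 did. It had 141, 86.4 and 82.0 normalized counts in WT and 118 and 208 in EID. EID replicate 2 was the highest sample, but WT replicate 1 was above EID replicate 1, so the groups overlapped. The log2 fold change was 0.64 (SE 0.32, 95% interval -0.13 to 1.42, adjusted p = 0.414 by limma) and ranged from 0.24 without EID replicate 2 to 1.05 without EID replicate 1. Its residual SD, 0.48 on the log2 scale, was larger than that of 97.3% of the same 11223 genes. The pair of samples with the most Fat4, EID replicate 2 and WT replicate 1, was also the pair with the largest sums of fibro-adipogenic progenitor markers (1532 and 1792), though in the opposite order, and the part of such cells in the Fat4 level was not tested. Per kb, Dchs1 exceeded Fat4 by 11.0, 29.4 and 26.6 times in WT and by 23.2 and 20.0 times in EID. Both EID ratios lay within the range of the WT ratios (two-sided exact permutation test, p = 1.0). With 3 against 2 samples this test gives no p under 0.2, so it could not have shown a difference.

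Fat1, a receptor-like cadherin that also binds regulators of the actin cytoskeleton, was high in every sample. It had 11689, 10152 and 11929 normalized counts in WT and 8882 and 11320 in EID, and the groups overlapped. The log2 fold change was -0.16 (SE 0.12, 95% interval -0.45 to 0.12, adjusted p = 0.591 by limma). EID replicate 1 was the lowest sample, and without it the fold change was 0.01. Fat2 (ENSMUSG00000055333), a cadherin of migrating epithelia, had 6, 9 and 5 reads in WT and 4 in each EID sample, or 5.30, 10.1 and 6.22 normalized counts in WT and 3.58 and 3.59 in EID. It reached the filter of 5 normalized counts only in WT. Its log2 fold change was -0.80 with a 95% interval of -1.88 to 0.29.

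Fjx1, the relative of four-jointed, had the lowest residual SD, 0.15 on the log2 scale, of the 6 members whose mean reached 100 normalized counts. It had 180, 142 and 149 normalized counts in WT and 165 and 178 in EID, and WT replicate 1 was the highest of the 5 samples. The log2 fold change was 0.13 (SE 0.16, 95% interval -0.24 to 0.50, adjusted p = 0.760 by limma).

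Of the Celsr genes, the polarity cadherins, Celsr2 and Celsr3 were expressed and Celsr1 was close to the floor. Celsr2 (ENSMUSG00000068740) had 486, 688 and 640 normalized counts in WT and 664 and 508 in EID, so that one sample of each genotype was low and the others high. Its log2 fold change was -0.04 (95% interval -0.47 to 0.39, adjusted p = 0.942 by limma), and it turned positive when any of WT replicates 2 and 3 or EID replicate 2 was left out. Celsr3 (ENSMUSG00000023473) had 120, 166 and 137 normalized counts in WT and 181 and 150 in EID, also overlapping. Its log2 fold change was 0.23 (95% interval -0.21 to 0.68, adjusted p = 0.625 by limma). Celsr3 shares exon sequence on the same strand with a small predicted gene, Gm23156, so reads from the shared part cannot be assigned with certainty. Celsr1 (ENSMUSG00000016028) had 6, 4 and 3 reads in WT and 4 and 2 in EID. It passed the filter through WT replicate 1 alone, and its log2 fold change was -0.61 with a 95% interval of -1.78 to 0.55. The ratio of Celsr2 to Celsr3 per kb was 4.24, 4.34 and 4.91 in WT and 3.85 and 3.56 in EID, lower in both EID samples (two-sided exact permutation test, p = 0.2, the smallest that 3 against 2 samples allows, so that no difference could pass a threshold of 0.05, and 0.6 after adjustment over the 3 quantities tested this way, which were this ratio, that of Dchs1 to Fat4 and the summed level of the family).

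**Figure D3:**
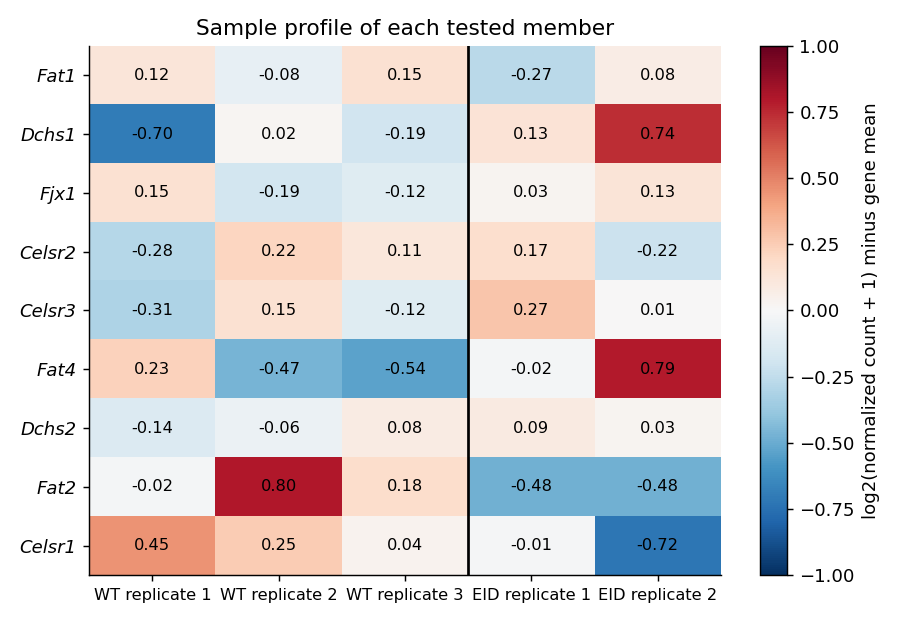
Log2(normalized count + 1) of each tested member minus its mean over the 5 samples, with members in rows ordered by level, samples in columns, and the value printed in each cell. Dchs1 runs from -0.70 in WT replicate 1 to 0.74 in EID replicate 2, Fat4 from -0.54 in WT replicate 3 to 0.79 in EID replicate 2, and Fat1 stays between -0.27 and 0.15.

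Fat1 made up a smaller share of the family, and Dchs1 a larger one, in both EID samples than in any WT sample. Fat1 took 78.1%, 70.3% and 75.4% of the summed level per kb in WT and 65.8% and 66.1% in EID, or 74.6% ± 3.96 (SD, n = 3) against 66.0% ± 0.215 (SD, n = 2). Dchs1 took 9.38%, 16.0% and 12.6% in WT and 18.5% and 22.2% in EID. These shares are a description: the family was chosen around Dchs1, whose higher values in EID lower the share of Fat1, while the level of Fat1 itself overlapped between the groups. Within a sample, Fat1 exceeded Dchs1 per kb by 8.32, 4.38 and 5.98 times in WT and by 3.55 and 2.98 times in EID. The summed level of the family showed no such order, with 957, 923 and 1011 normalized counts per kb in WT and 862 and 1093 in EID (exact permutation test, two-sided, p = 1.0).

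**Figure D4:**
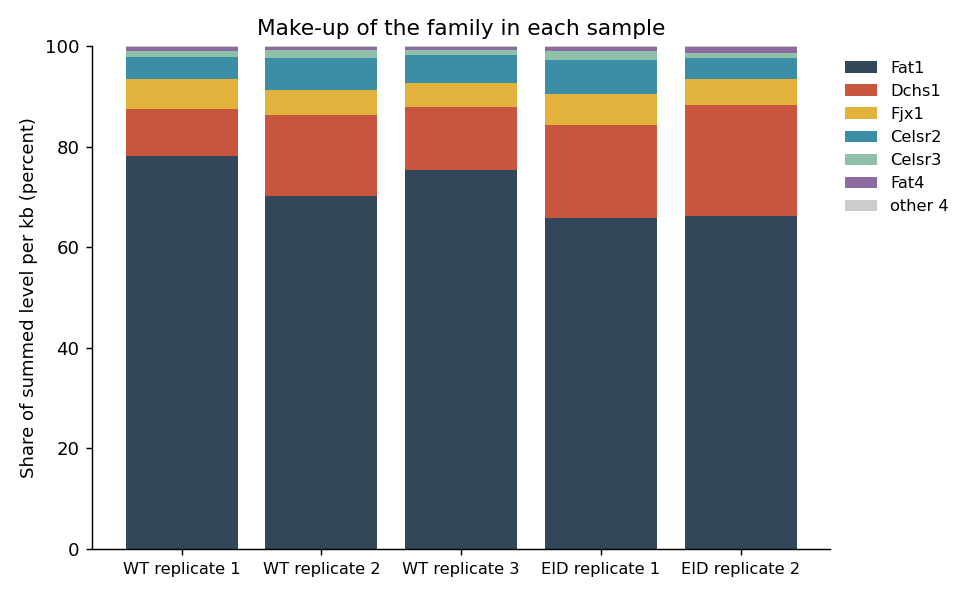
Share of each member in the family's summed level per kb of exon, in percent, one stacked bar per sample; the 4 members with the lowest levels are drawn together. Fat1 makes up 70.3% to 78.1% in WT and 65.8% and 66.1% in EID, and Dchs1 9.38% to 16.0% in WT and 18.5% and 22.2% in EID.

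The genes whose profile over the 5 samples was most like that of Dchs1 were not members of the family. By the root mean square difference of centred log2 values over the 5 samples, the nearest of 11222 genes, those whose mean reached 100 normalized counts, were Serpinb1c (0.10), which encodes a protease inhibitor of the serpin family, Ttn (0.17), the giant sarcomere protein titin, Hdgfl3 (0.18), Eppk1 (0.19), which encodes the cytoskeletal linker epiplakin, and Ptprf (0.19), a receptor-type tyrosine phosphatase. Serpinb1c had 97.2, 168 and 144 normalized counts in WT and 214 and 282 in EID. Like Dchs1, it was lowest in WT replicate 1 and highest in EID replicate 2. Among the members, Celsr3 was the nearest, at 0.38 and rank 649, while Fat4 was at rank 7000 and Fat1 at rank 8371. Protein-coding genes with a longest transcript of 10 kb or more, a class that holds Dchs1 and Ttn, had a median log2 fold change of 0.07 over 252 genes, against -0.02 over 2764 genes with one under 2 kb. The median centred value of the long class was -0.05 in WT replicate 1 and 0.04 in EID replicate 2, and its part in the Dchs1 values of -0.70 and 0.74 was not tested.

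Around the family, 3 lists of related genes were examined, and limma called 3 genes in them, all lower in EID. Over all genes tested, limma called 1.09% as higher and 1.14% as lower, 15.2% had an unadjusted p under 0.05, and the groups were apart for 16.7% with EID higher and for 15.9% with EID lower. DESeq2's Wald test called 10 of the 74 list genes tested, 2 of them higher, against 5.55% of all genes. Of 27 Hippo pathway genes, none was called by limma or edgeR and 6 had an unadjusted p under 0.05. DESeq2's Wald test called 3, Stk4 and Amot as higher and Frmd6 as lower, against 5.55% of all genes. No overlap was seen for 12 of them, 8 higher and 4 lower in EID, and the median log2 fold change was 0.09. Those with the largest differences among them were Tead2, a DNA-binding partner of YAP1, with 2066, 2382 and 1449 normalized counts in WT and 1320 and 1390 in EID (log2 fold change -0.51, adjusted p = 0.285 by limma), Frmd6, an upstream FERM-domain component (-0.42, adjusted p = 0.0706), and Amot, the angiomotin gene. Amot had 18910, 23119 and 22950 normalized counts in WT and 26083 and 31623 in EID (log2 fold change 0.41, adjusted p = 0.173 by limma).

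Of 22 planar cell polarity genes, limma called 1 lower in EID and none higher. The median log2 fold change was -0.14, with 15 negative and 7 positive values. DESeq2's Wald test called 3, Ptk7, Fzd6 and Vangl2, all lower, against 5.55% of all genes. Ptk7, a polarity co-receptor of the pseudokinase type, fell from 3199, 3352 and 2634 normalized counts in WT to 1960 and 1795 in EID, a log2 fold change of -0.70 (SE 0.11, adjusted p = 0.0346 by limma). Fzd6, a Frizzled receptor of the same core as the Celsr proteins, had 243, 246 and 251 normalized counts in WT and 46.5 and 114 in EID, a log2 fold change of -1.74 (adjusted p = 0.0597 by limma and 0.000169 by DESeq2). Vangl2, a core polarity gene, had 358, 365 and 300 in WT and 241 and 225 in EID (log2 fold change -0.54, adjusted p = 0.0993 by limma and 0.029 by DESeq2). The groups were apart for 7 of the 22 genes, all lower in EID, against 15.9% of all genes with EID lower. None was apart with EID higher, against 16.7% of all genes. An unadjusted p under 0.05 was found for 6 of the 22, against 15.2% of all genes.

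Of 27 other cadherin and catenin genes, 25 were tested, and limma called 2 lower in EID and none higher. The median log2 fold change was -0.28, with 18 negative and 7 positive values. The groups were apart for 9 genes with EID lower (15.9% of all genes) and for 2 with EID higher (16.7% of all genes), and 11 of the 25 had an unadjusted p under 0.05 (15.2% of all genes). Pcdh8 and Pcdh15 are among the 9 and the 11. They reached 5 normalized counts only in WT, so they carry no weight in these counts. Cdh11, the cadherin of mesenchymal cells, fell from 1179, 1091 and 1038 normalized counts in WT to 573 and 468 in EID, a log2 fold change of -1.09 (SE 0.11, adjusted p = 0.00659 by limma). Cdh10, a classical cadherin of neural tissue, fell from 128, 76.3 and 48.5 to 13.4 and 13.4 normalized counts (log2 fold change -2.45, adjusted p = 0.0374 by limma). Cdh6 had 762, 739 and 855 normalized counts in WT and 512 and 242 in EID (log2 fold change -1.15, adjusted p = 0.109 by limma and 0.00481 by DESeq2). DESeq2 called 4 of the 25 genes, Cdh6, Cdh10, Cdh11 and Cdh23, all lower, against 5.55% of all genes. Cdh5, the cadherin of endothelial junctions and one of the endothelial markers, had 281, 59.4 and 297 in WT and 727 and 1001 in EID (log2 fold change 2.31, adjusted p = 0.165 by limma). The pericyte and smooth muscle markers did not move one way: of the 8 genes, Notch3 and Rgs5 were called lower, while Cspg4 and Myh11 were higher in EID without overlap (log2 fold changes 0.39 and 1.42) and were not called. Their part in the cadherin values was not tested. The calls of these lists rested on few samples. By limma, Cdh11 was called lower when each WT replicate was left out in turn, and without WT replicate 1 it was the only list gene called. Without WT replicate 2, Cdh5 was also called higher, and without WT replicate 3, Tead2, Ptk7 and Cdh10 were also called lower. Leaving out an EID replicate left 1 sample in that group, so the genes called are not named.

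**Figure D5:**
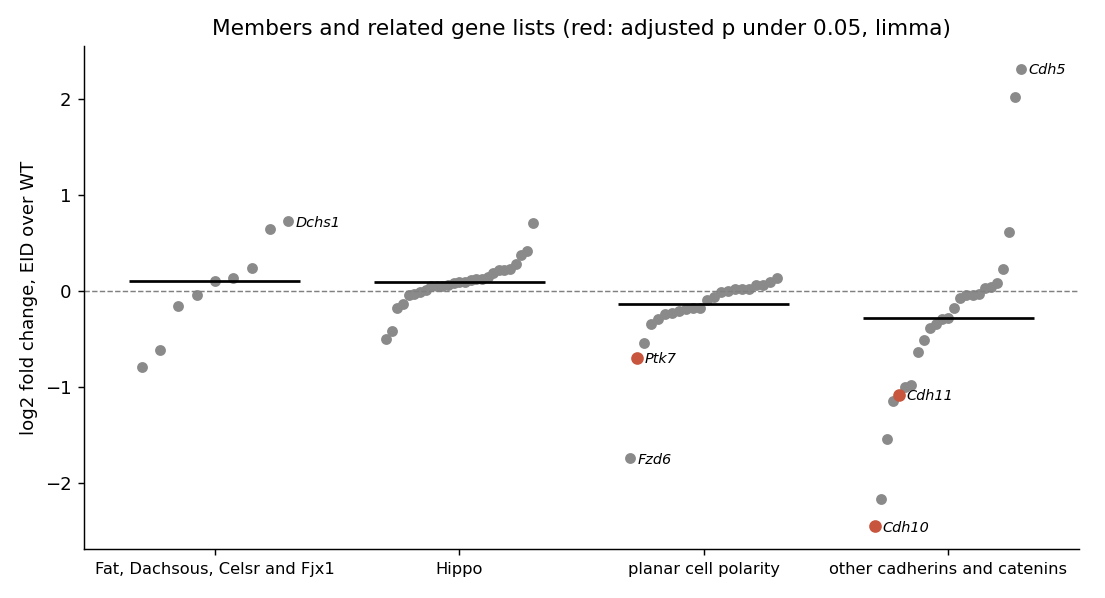
Log2 fold change of EID over WT for each tested gene of the family and of the 3 related lists, sorted within a list, with the list median as a black line and genes with an adjusted p under 0.05 by limma in red. The called genes are Ptk7, Cdh10 and Cdh11, all below 0, and the medians run from 0.10 for the family to -0.28 for the other cadherins and catenins.

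The genes next to the members on the chromosome were compared as counts. Of 113 protein-coding genes tested within 500 kb of a member, 0 were called higher and 1 lower by limma (0.885%), against 2.04% of all protein-coding genes tested. The called gene was Psrc1, near Celsr2, named here after its value was seen. Of the 17 neighbours of Dchs1, 0 were called.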

How the data were processed

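Poly-A RNA of 5 samples was sequenced, from WT (n = 3) and Elmo2 EID/EID (n = 2) myoblasts. According to the submitters' processing notes and the study's methods, reads were checked with FastQC (0.11.5), aligned to GRCm38 with STAR (2.5.1b), counted on the reverse strand with featureCounts (1.4.6) and scaled with DESeq2 (1.34.0). The authors deposited a signal per gene: its read count over a size factor from DESeq2. Reads were recovered by dividing each column by its smallest positive value, and 100% of values were whole within 0.01 of a read. Symbols, positions and exon lengths came from GENCODE release M21, which matched 54079 of 54232 identifiers. The methods name an older annotation release for counting, so the exon lengths used here may differ from those counted.

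Because the values were normalized, the main test was two-sided and used limma's lmFit and eBayes, with the variance allowed to follow the mean, on log2(normalized count + 1). Genes that reached 5 normalized counts in any sample were tested, and p-values were adjusted by the Benjamini-Hochberg procedure. A floor of 3 reads was used. The counting error follows from 35021856 to 49381544 recovered reads per sample, and floors cover counting error only. Replicates differed by more than sampling noise (chi-square 26.6 to 37.8 per degree of freedom), so none was merged. Alternatives were other pseudocounts, filters and scalings, limma without the trend, edgeR's quasi-likelihood test, the DESeq2 Wald test, a block for the replicate number, and each sample left out in turn. The named genes were the 10 members, Elmo2, in each list the called genes and the 3 with the largest differences among those whose mean reached 100 normalized counts and whose groups were apart, and the 5 nearest to Dchs1. The members and lists were chosen with earlier results of these data known. Software was R 4.3.3, limma 3.58.1, edgeR 4.0.16, DESeq2 1.42.0, Python 3.11.15, pandas 2.3.3 and scipy 1.17.1, and the fits were first tested on simulated data.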

Additional observations from a re-analysis of the deposited data

How the results depend on the processing

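By limma 404 genes, 0 members and 3 genes of the related lists were called. The corresponding counts were 155, 0 and 1 with no filter (every gene above 0), 144, 0 and 0 without the trend, and 961, 1 and 10 with the DESeq2 Wald test, where the member was Dchs1. Leaving out 1 sample at a time gave 34 to 335 genes, 0 members and 1 to 4 list genes, with the fewest genes without EID replicate 2 and 94 without EID replicate 1, 134 without WT replicate 1 and 203 without WT replicate 2. Where a group was left with 1 sample, that sample was taken to vary like the other group. With the replicate number as a replicate block, 224 genes, 1 member (Dchs1, adjusted p = 0.0335 by limma) and 5 list genes were called. The numbers did not pair the samples: over 15107 genes the difference of replicates 1 and 2 in WT and in EID correlated with r = -0.20, so the block result is given without weight.

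The log2 fold change of Fat1 ran from -0.3381 without EID replicate 2 to 0.0117 without EID replicate 1. That of Celsr2 was 0.0078 with the block, 0.0592 without WT replicate 2, 0.0078 without WT replicate 3 and 0.1517 without EID replicate 2, and at the other end -0.2342 without EID replicate 1. Dchs1 (0.42 to 1.03), Fat4 (0.24 to 1.05), Dchs2, Fjx1 and Celsr3 kept their direction under every alternative. Fat2 and Celsr1 have no value under a minimum mean of 10 normalized counts, and their direction under the others shows no stability, since they passed the filter only through WT. The cause of the other differences between settings was not tested.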
